A study of Sus scrofa with 599 samples.

Results

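Retroperitoneal adipose tissue (RAD) is the visceral fat that lies behind the peritoneum around the kidneys. The data described here compare RAD of female Bama pigs, a miniature breed, fed a normal diet (NC) with RAD of female Bama pigs fed a high-fat diet for 22 weeks (weight gain, WG). The pigs were 2 years old at the start of the diet, and animals that later lost weight are not part of either group. The members are the RAD columns of these groups that match a deposited sample, which gave 51 of the 236 RNA libraries of the series (12 NC and 39 WG) and 52 of the 240 Hi-C samples (12 NC and 40 WG). By the study's methods each sample is the RAD of 1 pig. The question was which genes and which parts of the genome differ in this depot between pigs on a normal diet and pigs that gained weight.

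Fat cells store fatty acids as triglyceride in a lipid droplet and release hormones, among them leptin and adiponectin. When fat expands, macrophages gather around enlarged or dying fat cells, and those that take up lipid make lysosomal enzymes, lipid receptors and matrix proteins such as osteopontin. In the nucleus, chromatin divides into an active compartment A and a silent compartment B, and the A-B index of a bin is positive in A and negative in B.

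Protein-coding genes (PCGs) took up a different share of the RNA in different NC pigs, measured as their part of summed TPM (a transcript level scaled for gene length and library), and this share split NC into 2 sets. In 6 NC libraries (replicates 1, 2, 5, 7, 8 and 12, below called low-share NC) this share was 79.5 to 84.8%. In the other 6 (replicates 3, 4, 6, 9, 10 and 11, high-share NC) it was 92.7 to 96.8%, and in WG it was 89.0 to 96.9%. Estimated counts on PCGs were 8485310 to 10810616 in low-share NC, 12814450 to 20034857 in high-share NC and 10179169 to 22426788 in WG. A change was therefore called only when it passed in the same direction against both sets. With the PCG share as a term in the fit of NC as 1 group, 1838 PCGs were called (881 higher and 957 lower in WG), beside 2266 (963 and 1303) without it. All 6 adipocyte markers were detected in every library, with a summed level of 12701 to 18647 TPM in low-share NC, 15656 to 32862 TPM in high-share NC and 12471 to 30995 TPM in WG. The 5 kidney and adrenal markers together stayed at or below 4.15 TPM in every NC library and reached 46.2 TPM in WG, where UMOD was at 41.04 TPM in the highest library. No gene ID was matched to the symbols of the 4 mesothelial markers, which were not analysed here. Where a named gene lost its call under some of 16 alternative settings (DESeq2, no filter, other scaling, separate fits and 12 fits without 1 NC library each), this is given beside it. These settings were not examined for CD9, CTSB, LGALS3, COL12A1 or the genes named only for their A-B index. The stability of those calls was not tested.

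Among 13571 PCGs tested, 559 differed between WG and both NC sets in the same direction (4.12%), with 345 higher in WG (2.54%) and 214 lower (1.58%). A call needed an adjusted p below 0.05 from edgeR's quasi-likelihood test and a fold change above 1.5. Against low-share NC alone 3036 PCGs were called (22.4%, with 10.4% higher and 12.0% lower in WG), and against high-share NC alone 872 (6.43%, with 3.66% higher and 2.76% lower). The 12 NC libraries as 1 group gave 2266 calls (16.7%, with 7.1% higher and 9.6% lower), of which 723 were also called against high-share NC alone. Between the NC sets themselves 430 PCGs differed (3.17%), 359 of them higher (2.65%) and 71 lower (0.523%) in low-share NC. The libraries of WG enter both contrasts, so the contrasts are not independent of each other. The median log2 fold change of all PCGs tested was 0.03 against low-share NC and -0.01 against high-share NC. Bulk tissue was sequenced, so that fewer cells of a type and less RNA per cell cannot be told apart.

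Several genes of lipid-associated macrophages were higher in WG. Of 17 tested members of this list, 8 rose against both sets (ACP5, SPP1, TREM2, GPNMB, CD9, LGALS3, PLIN2 and CTSB) and 0 fell, beside 2.54% of all PCGs that rose. The median log2 fold change of the 17 was 0.82 against low-share NC and 0.88 against high-share NC. ATP6V0D2 (ENSSSCG00000006138, 4:50694188-50749373) is a subunit of the proton pump that acidifies lysosomes, best known from osteoclasts. Only 4 of 12 NC libraries were above 0.5 TPM, so that the gene passed the filter on low genes through WG and had to differ, and its fold changes stand over a base near 0. ATP6V0D2 lay at 0 to 0.842 TPM in low-share NC (median 0.442), at 0 to 1.11 TPM in high-share NC (median 0.0594) and at 0.237 to 25.0 TPM in WG (median 4.61). The gene was low in every library on the normal diet, 4 of which were at 0, and 34 of 39 WG libraries exceeded every NC library. It was 11.4-fold higher than in low-share NC and 20.0-fold higher than in high-share NC, which is 3.51 ± 0.85 (SE) and 4.32 ± 0.88 on the log2 scale, with adjusted p values of 0.00143 and 0.0011 from edgeR. Without high-share NC replicate 11, the highest NC library, the second value was 6.41 on the log2 scale.

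ACP5 (tartrate-resistant acid phosphatase, ENSSSCG00000032282, 2:70206159-70209855) is a lysosomal enzyme of osteoclasts and activated macrophages. Its level was 1.14 to 11.2 TPM in low-share NC (median 2.81), 2.85 to 6.61 TPM in high-share NC (median 3.81) and 3.54 to 173 TPM in WG (median 26.04). The groups overlapped at the low end of WG, and 29 of 39 WG libraries were above every NC library. The log2 fold change was 2.52 ± 0.64 (SE) against low-share NC (edgeR, adjusted p = 0.00215) and 2.91 ± 0.65 against high-share NC (adjusted p = 0.00319).

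SPP1 (osteopontin, ENSSSCG00000009216, 8:131077786-131085334) is a secreted matrix protein that draws in macrophages. It ranged from 16.9 to 411 TPM in low-share NC (median 85.0), from 18.6 to 164 TPM in high-share NC (median 87.3) and from 58.4 to 1516 TPM in WG (median 540). The NC value of 411 TPM belonged to replicate 12, and the next highest NC library had 164 TPM, so that 1 pig set the upper end of the NC range. The log2 fold change was 1.85 ± 0.56 against low-share NC (2.65 without replicate 12) and 2.70 ± 0.60 against high-share NC, with adjusted p values from edgeR of 0.00941 and 0.00293.

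TREM2 (ENSSSCG00000039270, 7:36465921-36471509) is the lipid receptor that marks these macrophages, and GPNMB (ENSSSCG00000032241, 9:92037428-92071501) is a glycoprotein of their lysosomes. TREM2 was at a median of 2.21 TPM in low-share NC (0.835 to 6.87), 2.09 TPM in high-share NC (0.446 to 5.21) and 7.94 TPM in WG (1.83 to 62.4). For GPNMB the medians were 104, 104 and 343 TPM, with ranges of 43.4 to 287, 28.3 to 205 and 83.5 to 1574 TPM. Both genes spread widely within WG, and 24 (TREM2) and 25 (GPNMB) of 39 WG libraries were above every NC library. TREM2 rose by 1.49 and 2.12 on the log2 scale against the low-share and high-share sets (edgeR, adjusted p = 0.0391 and 0.0185), and GPNMB by 1.32 and 1.84 (adjusted p = 0.0205 and 0.0094). The call of TREM2 was lost in 7 fits that left out 1 NC library each, over which its log2 fold change was 1.296 to 1.86 against low-share NC and 1.92 to 2.50 against high-share NC, and that of GPNMB in 3 (1.15 to 1.74 and 1.65 to 2.04). CD9 (a tetraspanin), CTSB (the lysosomal protease cathepsin B) and LGALS3 (galectin-3) rose by 1.15, 0.88 and 1.66 on the log2 scale against high-share NC.

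The 250 bases before the RefSeq start of these 5 genes (Sscrofa11.1) are shown because the genes rose together. They are written 5′ to 3′ on the strand of the gene, and capitals mark a motif match.
ATP6V0D2, chr4:50749374-50749623, minus strand: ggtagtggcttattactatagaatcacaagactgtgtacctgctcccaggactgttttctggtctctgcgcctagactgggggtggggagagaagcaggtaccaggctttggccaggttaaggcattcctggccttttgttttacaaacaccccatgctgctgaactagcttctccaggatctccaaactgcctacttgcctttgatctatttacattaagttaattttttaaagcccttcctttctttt
ACP5, chr2:70209856-70210105, minus strand: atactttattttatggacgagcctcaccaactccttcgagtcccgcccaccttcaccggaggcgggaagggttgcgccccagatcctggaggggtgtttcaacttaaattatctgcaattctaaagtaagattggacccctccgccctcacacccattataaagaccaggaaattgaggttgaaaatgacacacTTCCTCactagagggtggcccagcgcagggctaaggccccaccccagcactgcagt
SPP1, chr8:131085335-131085584, minus strand: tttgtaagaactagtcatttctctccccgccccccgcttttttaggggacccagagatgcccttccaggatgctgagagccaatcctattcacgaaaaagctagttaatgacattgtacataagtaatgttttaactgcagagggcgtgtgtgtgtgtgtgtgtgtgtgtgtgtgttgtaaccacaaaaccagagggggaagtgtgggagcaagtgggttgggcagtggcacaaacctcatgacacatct
TREM2, chr7:36471510-36471759, minus strand: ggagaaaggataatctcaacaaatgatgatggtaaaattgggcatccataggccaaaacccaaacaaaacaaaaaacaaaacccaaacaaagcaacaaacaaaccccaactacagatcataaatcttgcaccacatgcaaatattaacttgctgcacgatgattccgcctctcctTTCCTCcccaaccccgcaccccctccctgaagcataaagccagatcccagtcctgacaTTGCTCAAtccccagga
GPNMB, chr9:92037178-92037427, plus strand: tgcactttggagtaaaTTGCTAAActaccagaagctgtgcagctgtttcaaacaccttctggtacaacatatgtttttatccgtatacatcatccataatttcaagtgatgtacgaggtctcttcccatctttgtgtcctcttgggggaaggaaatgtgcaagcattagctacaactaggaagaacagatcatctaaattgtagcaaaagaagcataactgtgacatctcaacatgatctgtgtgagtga

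A set of 4 motifs was searched on both strands of these windows: GAGGAA, the core that PU.1 binds, CACGTG, an E-box, TGANTCA, the AP-1 site, and TTGCNNAA, a C/EBP site. The PU.1 core occurred in ACP5 (bases 56 to 51 before the start) and TREM2 (bases 75 to 70), and it occurs in 22.7% of the same windows of 10581 genes. The C/EBP letters occurred in TREM2 (bases 17 to 10) and GPNMB (bases 234 to 227), and in 7.75% of all windows. E-box and AP-1 letters, which occur in 7.48% and 4.16% of all windows, were not in these 5. The GC content of the 5 windows was 39.6 to 52.8%, and the median of all windows was 60.8%. A match is a description of letters and not of binding.

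**Figure D1:**
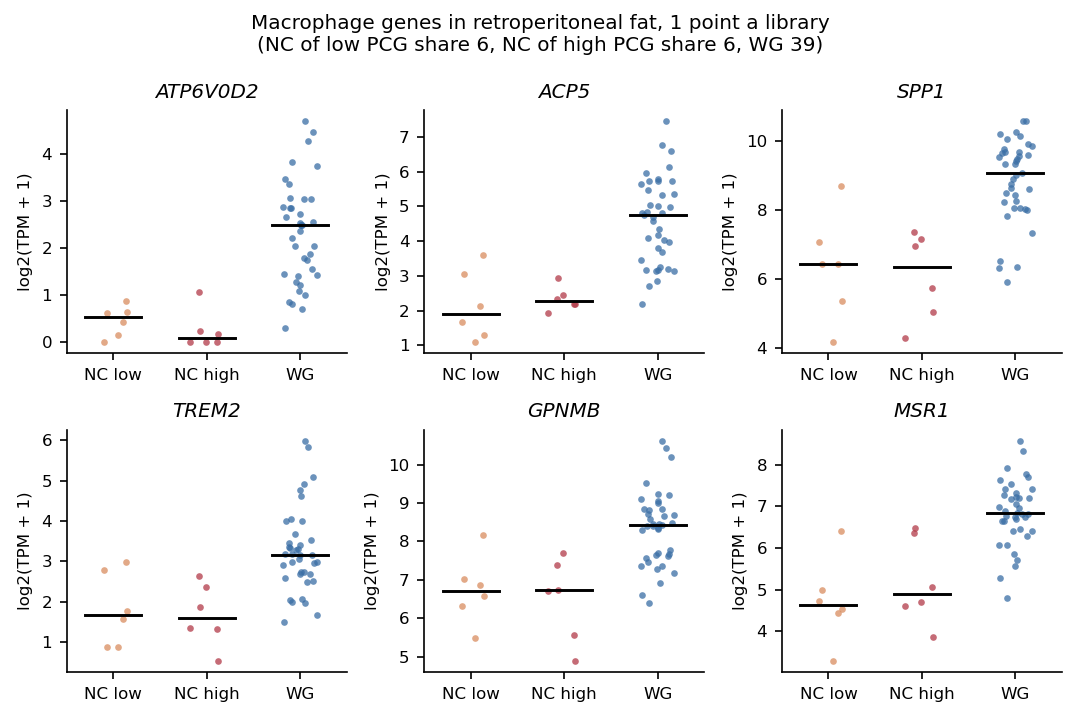
Levels of 6 macrophage genes in each RNA library, as log2(TPM + 1), in low-share NC (6 libraries), high-share NC (6) and WG (39), with 1 point a library and a line at the median. In each panel most WG points lie above the NC points, and 34 of 39 WG libraries exceed every NC library for ATP6V0D2.

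Fewer of the general macrophage genes passed, beside 2.54% of all PCGs that rose. Of 17 tested members of the general macrophage list, 2 rose against both sets (the scavenger receptor MSR1 and the complement subunit C1QC, whose call was lost under 7 of 16 settings), and 15 had a positive log2 fold change against both. MSR1 rose from medians of 23.9 and 28.9 TPM in the NC sets to 113 TPM in WG, by 1.66 and 1.49 on the log2 scale (edgeR, adjusted p = 0.00158 and 0.0133), and it lost its call in 3 fits without 1 NC library (1.47 to 2.21 and 1.32 to 1.79). CD68 and CD163, which are common markers of tissue macrophages, did not pass, with log2 fold changes of 0.81 and 1.39 (CD68) and 0.44 and 0.67 (CD163). Their medians were 23.9, 17.6 and 29.1 TPM for CD68 and 102.05, 76.8 and 146 TPM for CD163 in low-share NC, high-share NC and WG. The summed level of the 5 macrophage markers (CD68, CD163, CSF1R, MRC1 and C1QA) had medians of 310, 281 and 460 TPM and ranged up to 374, 476 and 1164 TPM, and 0 of the 5 were called against both sets by edgeR. The part of this sum in the higher levels of the lipid-associated genes was not tested.

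Signalling molecules of inflammation rose in a few cases. Beside 2.54% of all PCGs that rose, of 23 tested chemokines and receptors 3 rose, among them CCR1 and CXCL14, of 15 cytokines and receptors 3 rose (LIF, IL6 and IL1R1), and of 15 toll-like receptor and inflammasome genes 2 rose (TLR8 and NLRP3), with 0 that fell in these lists. Calls were lost under 7 of 16 settings for CXCL14, 6 for IL1R1 and NLRP3, 5 for TLR8, 4 for LIF and 3 for CCR1. IL6 was at 6.72 to 20.6 TPM in low-share NC (median 11.9), 6.36 to 51.2 TPM in high-share NC (median 12.4) and 12.8 to 207 TPM in WG (median 48.4). Replicate 11 was the high NC library, and 18 of 39 WG libraries were above it. The log2 fold change of IL6 was 1.73 ± 0.46 against low-share NC and 1.42 ± 0.45 against high-share NC (2.10 without replicate 11), with adjusted p values from edgeR of 0.0035 and 0.0325. Its call was lost in 5 fits without 1 high-share NC library (replicate 3, 4, 6, 9 or 10), over which the second value was at least 1.22. CCL2, the chemokine that attracts monocytes, had medians of 58.6, 60.1 and 136 TPM and log2 fold changes of 0.48 and 1.04, and it did not pass against either set. No gene ID was matched to the symbol TNF.

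Lists of lymphocytes, antigen presentation and interferon response held no call, and are short beside a background of 4.12%. By edgeR 0 of 18 T cell genes, 0 of 10 B cell genes, 0 of 6 MHC class II genes and 0 of 27 interferon-stimulated genes were called against both sets, which is close to that background. DESeq2 called 1, 2, 1 and 0 of them higher. At an unadjusted p below 0.05 in both contrasts, 2, 2, 1 and 1 of them were higher and 1, 1, 0 and 0 lower.

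Matrix genes had mostly positive differences. Beside 2.54% of all PCGs that rose, of 27 tested genes of fibrillar collagen and fibrosis, 24 had positive log2 fold changes against both sets, 5 rose (CTHRC1, CCN2, COL1A2, COL3A1 and COL12A1) and 0 fell. CTHRC1, a secreted protein of activated fibroblasts, had medians of 3.33 TPM in low-share NC, 7.87 TPM in high-share NC and 28.2 TPM in WG. Its highest NC library had 27.6 TPM, and 20 of 39 WG libraries exceeded that. CTHRC1 rose by 2.50 ± 0.46 and 1.74 ± 0.42 on the log2 scale (edgeR, adjusted p = 4.06e-05 and 0.00658). COL3A1 and COL1A2, chains of the fibrillar collagens of connective tissue, had medians of 1002, 1484 and 2834 TPM and of 204, 295 and 690 TPM. COL3A1 rose by 1.10 and 0.94 and COL1A2 by 1.27 and 1.05 on the log2 scale, and 33 of 39 WG libraries had more COL3A1 than any NC library. Calls were lost under 6 of 16 settings for CCN2 (without replicate 1, 3, 4, 9 or 10 and without the filter) and 2 each for COL1A2 and COL3A1, and the log2 fold change of CCN2 against low-share NC was 0.88 without replicate 1. COL1A1 and COL6A3 did not pass, with log2 fold changes of 0.32 and 0.94 for COL1A1 and of 0.17 and 0.58 for COL6A3.

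Among all PCGs tested, 2.54% rose and 1.58% fell. Of 15 smooth muscle genes, 2 rose (ACTA2, smooth muscle actin, and TAGLN, transgelin, whose call was lost under 9 of 16 settings). ACTA2 went from medians of 54.7 and 85.4 TPM in the NC sets to 176 TPM in WG, which is 1.08 and 0.89 on the log2 scale (edgeR, adjusted p = 0.0018 and 0.0236), and its call was lost without high-share NC replicate 3, 6 or 9 (0.71 to 1.19 against that set over all fits without 1 NC library). The 3 smooth muscle markers MYH11, ACTA2 and DES summed to medians of 86.3, 113 and 230 TPM, and their part in the matrix changes was not tested. Of the 14 progenitor genes 0 were called against both sets by edgeR or DESeq2, and 0 had an unadjusted p below 0.05 in both contrasts. Of the 16 endothelial genes 0 were called by either tool, and 3 were higher at an unadjusted p below 0.05 in both. PECAM1 (endothelium) and PDGFRA (progenitors) had log2 fold changes of 0.19 and 0.11 and of 0.58 and 0.31. HBB, a haemoglobin chain of red cells that is named here after its values were seen, had medians of 794, 1000 and 2256 TPM, and with ALAS2 the red cell markers summed to 798, 1005 and 2269 TPM. HBB did not pass against high-share NC.

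Of 15 tested adipokines, hormones and other proteins that fat releases, 2 rose (LEP and METRNL) and 2 fell (ADIPOQ and RBP4), beside 2.54% and 1.58% of all PCGs. Leptin (LEP, ENSSSCG00000040464, 18:20106867-20124071) signals the size of the fat store to the brain. The 6 low-share NC libraries had 40.2 to 187 TPM of LEP (median 104), the 6 high-share NC libraries 100 to 164 TPM (median 146), and the 39 WG libraries 190 to 1110 TPM (median 547). Every WG library was above every NC library, and the groups did not overlap. The means were 110 ± 52.8 TPM, 140 ± 25.5 TPM and 589 ± 205 TPM (SD, n = 6, 6 and 39). LEP rose by 2.02 ± 0.27 (SE) against low-share NC and by 1.99 ± 0.27 against high-share NC on the log2 scale, with adjusted p values of 4.77e-08 and 1.36e-06 from edgeR.

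Adiponectin (ADIPOQ), a hormone that raises insulin sensitivity, went the other way. Its level was 2393 to 4953 TPM in low-share NC (median 3761), 4177.5 to 10577 TPM in high-share NC (median 6554) and 1199 to 5387 TPM in WG (median 3289). WG overlapped with both NC sets, more with low-share than with high-share NC, and 10 of 39 were below every NC library. ADIPOQ fell by 0.59 against low-share NC and by 1.19 against high-share NC on the log2 scale (edgeR, adjusted p = 0.0438 and 0.000304). The call was lost without low-share NC replicate 1, 2, 5, 8 or 12, and the value against low-share NC was -0.68 to -0.44 over the fits without 1 NC library. RBP4, the retinol carrier of plasma, fell by 1.23 and 1.02 (medians 111, 134 and 70.4 TPM). METRNL, a secreted protein of fat and muscle, rose by 1.47 and 1.09 (medians 19.7, 27.6 and 60.1 TPM), with its call lost under 3 of 16 settings.

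**Figure D2:**
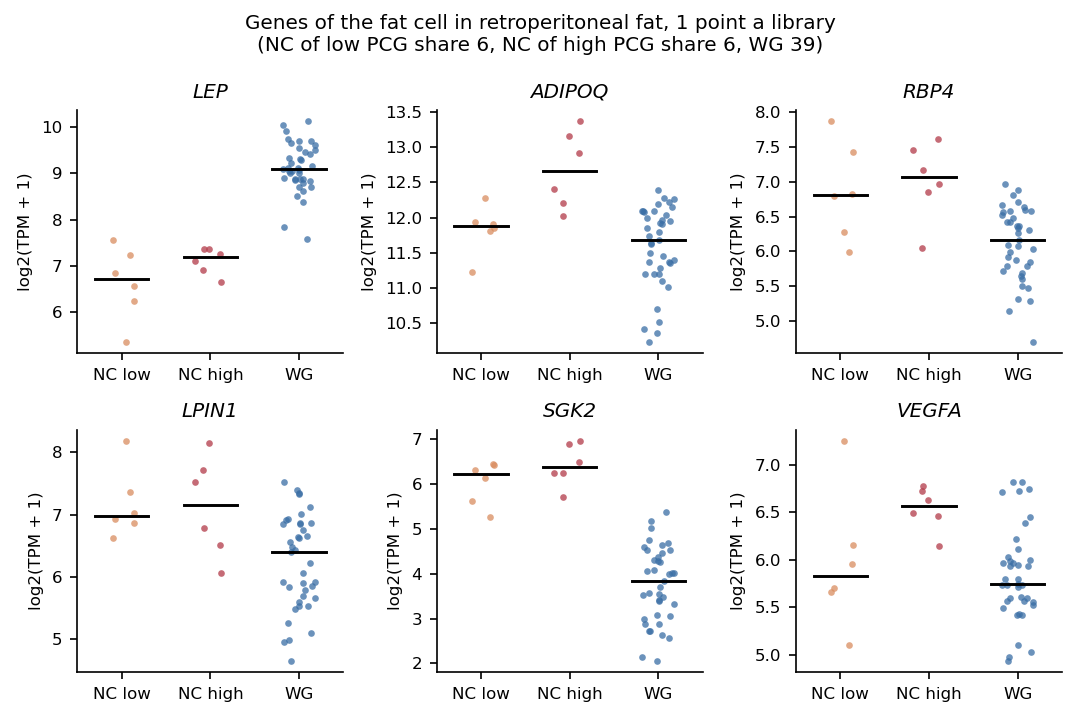
Levels of 6 genes in each RNA library, as log2(TPM + 1), in low-share NC (6 libraries), high-share NC (6) and WG (39), with 1 point a library and a line at the median. All 39 WG points of LEP lie above the NC points, 38 of 39 WG points of SGK2 lie below them, and VEGFA has 1 NC library at 151 TPM, far above the other low-share NC libraries.

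A few enzymes and regulators of lipid metabolism passed, beside 2.54% of all PCGs that rose and 1.58% that fell. The counts in these short lists were not tested against those shares. Of 13 genes of fatty acid uptake and activation, 2 rose: the acyl-CoA synthetase ACSL5 (0.81 and 0.64) and the transporter SLC27A4 (0.96 and 0.62), with calls lost under 1 and 4 of 16 settings. The lipid droplet protein PLIN2 rose by 1.22 and 0.89, from medians of 93.0 and 122 TPM to 293 TPM, and its call was lost in 11 of the 12 fits without 1 NC library (0.77 to 1.19 against high-share NC). Of 13 triglyceride synthesis genes 1 fell, the phosphatidic acid phosphatase LPIN1 (-1.29 and -0.96, medians 125, 146 and 83.1 TPM), whose call was lost under 3 of 16 settings. Of 13 lipolysis genes 1 fell, PRKAR2B, a regulatory subunit of protein kinase A that is common in fat (-0.88 and -1.08, medians 408, 561 and 262 TPM). For PRKAR2B the adjusted p values from edgeR were 9.56e-05 and 2.85e-05, and 26 of 39 WG libraries were below every NC library.

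Several lists of lipid metabolism and insulin action held no call, and are short beside a background of 4.12%. Among 19 lipogenesis genes, 20 fatty acid oxidation genes, 22 cholesterol genes, 16 adipogenic transcription factors and 17 insulin signalling genes, edgeR called 0 against both sets. DESeq2 called 1 lipogenesis gene and 0 in the other 4 lists. With an unadjusted p below 0.05 in both contrasts, 1, 0, 2, 0 and 1 of their members were higher and 1, 2, 1, 3 and 2 lower. FASN, the fatty acid synthase, varied from 103 to 3161 TPM within WG and from 340.4 to 2546 TPM and 453 to 1803 TPM within the NC sets, with log2 fold changes of -0.86 and -0.17. SCD, which desaturates stearate, had medians of 1062, 773 and 2647 TPM and log2 fold changes of 1.23 and 1.81, with adjusted p values from edgeR of 0.069 and 0.032. LPL, LIPE and PNPLA2, the lipases of fat, had log2 fold changes of -0.58 and -0.34, of -0.39 and -0.44, and of -0.82 and -0.34. SLC2A4, the insulin-responsive glucose transporter, had -0.14 and -0.41, INSR -0.35 and -0.30, and IRS1 -0.65 and -0.34.

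SGK2, PFKFB1 and SLC36A2 were among the 10 lower genes with the largest change. SGK2 (ENSSSCG00000024325, 17:46188160-46208807), a serine/threonine kinase related to the glucocorticoid-induced SGK1, was at 37.3 to 86.6 TPM in low-share NC (median 74.3), 51.2 to 125 TPM in high-share NC (median 82.8) and 3.13 to 40.6 TPM in WG (median 13.4). Only the highest of the 39 WG libraries reached the NC range. SGK2 fell to 0.166 times the level of low-share NC and 0.154 times that of high-share NC, a log2 fold change of -2.59 ± 0.28 and -2.70 ± 0.28 (edgeR, adjusted p = 2.84e-10 and 1.93e-09). PFKFB1, which makes the activator of glycolysis fructose 2,6-bisphosphate, had medians of 21.7 and 28.7 TPM in the NC sets and 4.85 TPM in WG. It fell by 2.19 and 2.30 on the log2 scale (edgeR, adjusted p = 5.52e-07 and 2.19e-06), and 32 of 39 WG libraries were below every NC library. SLC36A2, a transporter of small amino acids that marks brown fat in mice, fell by 2.78 and 1.78 (medians 8.16, 6.68 and 2.04 TPM).

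The calls of some lower genes depended on single NC libraries. C5, a complement component, was at 54.2 TPM in low-share NC replicate 7 and at 0.877 to 3.34 TPM in the other 5 libraries of that set. Its log2 fold change against low-share NC was -2.37 with that library and 0.10 without it, and its call was lost. The call of C5 was also lost without replicate 3, 4, 6 or 9, without the filter and with upper-quartile scaling. HSD17B6, which converts steroids, was at 23.4 TPM in the same library, at 13.2 and 9.39 TPM in high-share NC replicates 6 and 4, and lost its call when each of the 3 was left out in turn (-2.05 against low-share NC with replicate 7 and -0.42 without it). PAEP (-3.16 and -0.79) and CYP2A19 (-2.49 and -1.31) lost theirs against high-share NC without replicate 4, and CYP2A19 had a second high library, low-share NC replicate 7, at 92.3 TPM. VEGFA, the endothelial growth factor, had -0.66 against low-share NC with replicate 1 and -0.20 without it, and this call was lost too. VEGFA lost its call without the filter as well. The other lower genes of the top 10 were SPINK9 (-2.92 and -2.67), MCTP2 (-1.59 and -1.89), PEBP4 (-1.91 and -1.58) and ANO4 (-2.16 and -2.18). The call of ANO4 was lost under 14 of 16 settings, DESeq2 among them. ANO4 was at 0.544 TPM or more in every NC library and at a median of 0.387 TPM in WG. It thus passed the filter on low genes through NC, where it was high, and had to differ. SPINK9 was near the floor in WG, with a median of 0.725 TPM and a lowest value of 0.

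Among the other genes with the largest rise were SCIN, TREH, AMBN, RGS17, LPXN and LOXL4. SCIN (adseverin, which severs actin) had medians of 10.1, 11.6 and 89.3 TPM, and RGS17, a regulator of G protein signalling, 2.52, 3.69 and 19.7 TPM. LPXN (leupaxin, an adaptor of adhesion sites in leukocytes) had medians of 5.79, 9.47 and 33.4 TPM, and 36 of 39 WG libraries were above every NC library. TREH (trehalase) rose by 2.25 and 3.09 on the log2 scale, AMBN (ameloblastin) by 2.02 and 2.25, and LOXL4 (a lysyl oxidase that crosslinks collagen) by 2.12 and 1.81, with the call of LOXL4 lost under 7 of 16 settings. Low-share NC replicate 12 had the highest NC level of SCIN, TREH and AMBN, and without it their log2 fold changes against that set were 3.21, 2.89 and 2.83.

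Immediate early genes rose and circadian genes fell in a few cases. Beside 2.54% of all PCGs that rose, of 18 tested immediate early genes 3 rose, the transcription factors EGR2 and JUNB and the cytokine inhibitor SOCS3, with a list median of 0.64 and 0.67 on the log2 scale. The calls of SOCS3 and EGR2 were lost under 8 and 4 of 16 settings. JUNB was at 35.7 to 138 TPM in low-share NC, 42.5 to 218 TPM in high-share NC and 148 to 714 TPM in WG (medians 83.7, 95.3 and 261). Of the WG libraries, 27 of 39 were above every NC library. JUNB rose by 1.39 and 1.21 (edgeR, adjusted p = 0.000535 and 0.00788). Beside 1.58% of all PCGs that fell, 2 of 18 circadian genes fell, among them the clock output factor DBP (-0.94 and -1.10). The call of DBP was lost under 4 of 16 settings. The hours of sampling were not analysed here, and their part in this gene was not tested. Of 12 genes of the IGF axis IGFBP2 rose (1.54 and 1.19) and IGFALS fell (-0.84 and -1.36), and of 16 WNT genes DKK3, which is related to WNT inhibitors, rose (0.73 and 0.85) and the ligand WNT5A fell (-1.57 and -0.96). MMP23B was the 1 of 14 metalloproteinases that rose (1.42 and 0.93), and CCNE2 (cyclin E2) the 1 of 17 proliferation genes that fell (-0.82 and -0.59). Calls were lost under 6 of 16 settings for DKK3, 3 each for IGFBP2, IGFALS and CCNE2 and 2 for WNT5A. The counts in these short lists were not tested against the shares over all PCGs.

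Of 46 gene lists, 26 had 0 members called against both sets by edgeR, beside 4.12% of all PCGs that were called. In 7 of these 26 DESeq2 called a member, and in 18 a member had an unadjusted p below 0.05 in both contrasts. The 12 mitochondria-encoded genes had negative log2 fold changes against both sets, with medians of -1.79 and -0.87. By edgeR 7 were called lower against low-share NC and 0 against high-share NC, and their median for low-share over high-share NC was 0.90. Of the 12, 0 were called against both by edgeR or DESeq2 or had an unadjusted p below 0.05 in both. With NC as 1 group their median was -1.40. The study reports the other direction, with mitochondria-encoded genes generally higher in RAD after weight gain. It compared expression levels of 13 such genes between NC and WG by a rank test and states no split of NC. The values here are fold changes of scaled counts, so the 2 measures are not alike. The cause of the difference was not tested. Of 41 nuclear genes of the respiratory chain 0 were called by either tool, with 1 higher and 1 lower at an unadjusted p below 0.05 in both, and medians of 0.14 and -0.11. The 12 thermogenic genes had 0 calls by either tool, 3 of them lower at an unadjusted p below 0.05 in both.

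**Figure D3:**
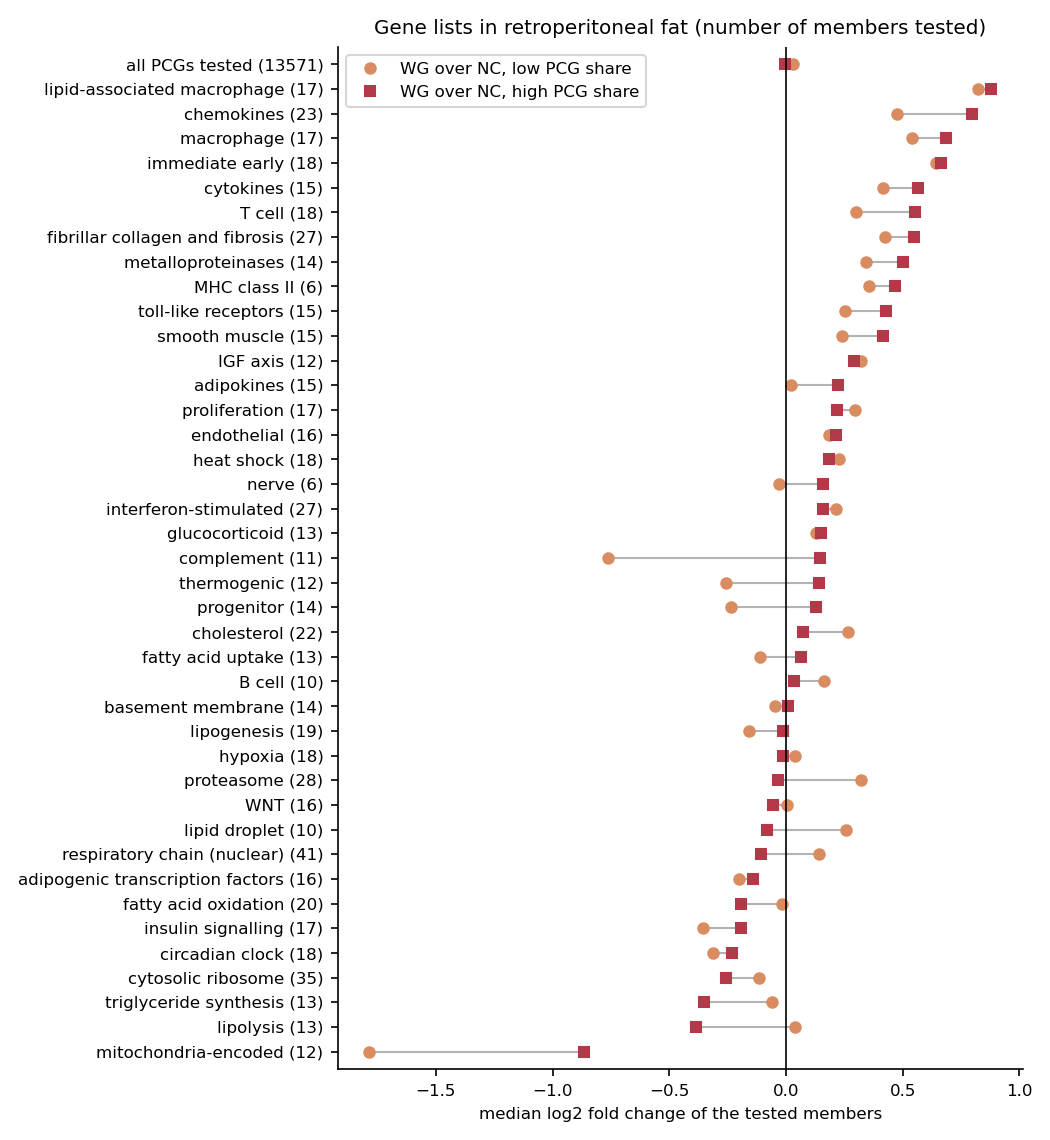
Median log2 fold change of the tested members of gene lists, WG over low-share NC (circles) and WG over high-share NC (squares), with the number of members tested in brackets. The lists with the fewest tested members (erythroid, neutrophil, mast cell, mesothelial, skeletal muscle, and kidney and adrenal) are not drawn. Among lists with at least 10 tested members the lipid-associated macrophage genes have the highest medians (0.82 and 0.88). The mitochondria-encoded genes have the lowest medians (-1.79 and -0.87). The 3 erythroid genes, which are not drawn, have medians of 1.10 and 1.02.

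A few PCGs went in opposite directions against the 2 sets. There were 8 of them in all. CLVS1, a lipid-binding protein, was at 37.5 to 59.9 TPM in low-share NC, 2.71 to 11.7 TPM in high-share NC and 4.30 to 15.5 TPM in WG, so that low-share NC did not overlap with the other groups. Its log2 fold changes were -2.85 and 0.66. FBXL2, a subunit of a ubiquitin ligase (-1.20 and 0.70), and RPS6KL1, a ribosomal S6 kinase-like protein (-0.63 and 0.85), had the same signs. The part of library composition in these genes was not tested.

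The A-B index was available for 113298 autosomal bins of 20 kb. Of these, 23528 (20.8%) differed between NC and WG at an adjusted p below 0.05 by limma, 19717 higher and 3811 lower in WG. A/B variable bins kept their compartment in over 80% of the samples of each group and differed by more than 0.75 in the index. There were 4332 of them (3.82%), 3787 higher in WG (3.34%) and 545 lower (0.481%), with 3638 in compartment A and 694 in B. The median difference over all bins was 0.14, and when every sample was forced to 1 common distribution of index values (quantile normalization), the same rule gave 2428 bins, 1166 higher and 1262 lower. The share of higher bins among variable bins was 87.4% before and 48% after that normalization. Only 25 bins (0.0221%) switched compartment, 24 from B to A and 1 from A to B. A further rule found 305 bins (0.269%) that went between at least 70% and at most 30% of samples in A, 246 of them towards A. After quantile normalization 21 bins switched, 14 from B to A and 7 from A to B. The rule of 70% and 30% then gave 252 bins, 154 towards A and 98 towards B. Between the 6 NC pigs with low-share RNA libraries and the other 6, 0 bins differed at an adjusted p below 0.05 by limma (11164 at an unadjusted p below 0.05). Of the variable bins, 1800 were variable in the same direction with either set of 6.

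The variable bins of the index before quantile normalization were not spread evenly over the chromosomes. After that normalization the bins were 1166 higher and 1262 lower, and their shares by chromosome were not computed. Bins of higher index made up 7.70% of chromosome 2, 6.83% of chromosome 13, 6.75% of chromosome 1 and 5.0% of chromosome 6. On chromosomes 10, 16 and 18 the share was 0.115%, 0.150% and 0.107%. Bins of lower index were most common on chromosome 17 (4.28%) and chromosome 12 (2.60%). All variable bins formed 2423 runs of neighbouring bins of 1 direction, of which the longest had 29 bins and the median 1.

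LGALS3 was the gene called against both sets with the largest index difference. The bin of its start, 1:184460001-184480000, had an index of 1.11 to 2.80 in NC (median 1.97) and 2.16 to 5.21 in WG (median 3.61). All samples were in compartment A, and 35 of 40 WG samples were above every NC sample. The index rose by 1.70 ± 0.24 (SE), with an adjusted p of 2.91e-06 from limma, and by 1.49 after quantile normalization. LGALS3 expression was at medians of 44.7 and 38.2 TPM in the NC sets and 122 TPM in WG, with log2 fold changes of 1.03 and 1.66.

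Starts of 1201 genes lay in variable or switch bins of higher index, and 1038 of them were tested for expression. Of these 43 rose against both NC sets (4.14%, beside 2.54% of all PCGs tested) and 9 fell (0.867%, beside 1.58%). The 2 backgrounds also cover PCGs without a symbol or an autosomal position. Among PCGs tested, 10233 had both, and the shares among those were not computed. The 25 genes in bins of lower index had 16 tested members, of which 0 rose and 1 fell by edgeR, PPP4R4, a regulator of protein phosphatase 4. After quantile normalization all 1201 genes had a positive index difference, but it was above 0.75 with an adjusted p below 0.05 for 332 of them, and the absolute difference was above 0.75 for 16 of the 53 genes, in bins of either direction, that were also called in expression. Of the genes named next, IL6, JUNB, ACTA2, DNASE2, IL27RA, RCAN1 and NLRP3 were then between 0.588 and 0.734. Genes that rose in both index and expression included ITGB2 (the beta chain of leukocyte integrins, index from a median of 5.52 to 6.86), NCKAP1L (an actin regulator of blood cells, 2.52 to 3.61), IFI30 (a lysosomal thiol reductase of antigen processing, 5.82 to 6.79), DNASE2 (a lysosomal nuclease, 4.06 to 4.86) and IL27RA (3.74 to 4.68). Others were PLIN2 (2.83 to 4.02), PTPRJ (a receptor phosphatase, 3.16 to 4.41), the growth factor HBEGF (3.35 to 4.51), RCAN1 (a calcineurin inhibitor, 2.86 to 3.83), IL6 (1.58 to 2.13), JUNB (4.82 to 5.85) and ACTA2 (0.81 to 1.69). NLRP3, the sensor of the inflammasome, rose in index within compartment B, from a median of -3.78 to -3.11. At ITGB2, 31 of 40 WG samples were above every NC sample, and at ACTA2 28 of 40. By the study's methods, Hi-C was made from a tissue layer that holds the fat cells, and no such step is described for RNA. The index and the expression of a gene, those of leukocyte genes among them, may therefore come from different cells, which was not tested.

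In expression, ITGB2 was at medians of 9.83, 13.6 and 26.9 TPM in low-share NC, high-share NC and WG and rose by 1.10 and 1.21 on the log2 scale, NCKAP1L at 12.8, 17.3 and 34.8 TPM (1.13 and 1.00) and IFI30 at 20.4, 30.2 and 82.1 TPM (1.38 and 1.23). RCAN1 was at 25.1 to 65.9 TPM and 14.8 to 99.9 TPM in the NC sets and 72.3 to 331 TPM in WG, and rose by 1.61 and 1.58. The receptor tyrosine kinase MST1R (index 4.50 to 5.44, log2 fold changes -1.47 and -1.76), CLSTN3, a calsyntenin (3.89 to 4.68, -1.88 and -1.28), HOOK2 (4.52 to 5.43, -1.27 and -0.82) and CYP2A19 (3.39 to 4.32) had a higher index and lower expression. After quantile normalization their index differences were 0.589, 0.467, 0.543 and 0.487 in the same order. All of these were short of the limit set for variable bins.

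**Figure D4:**
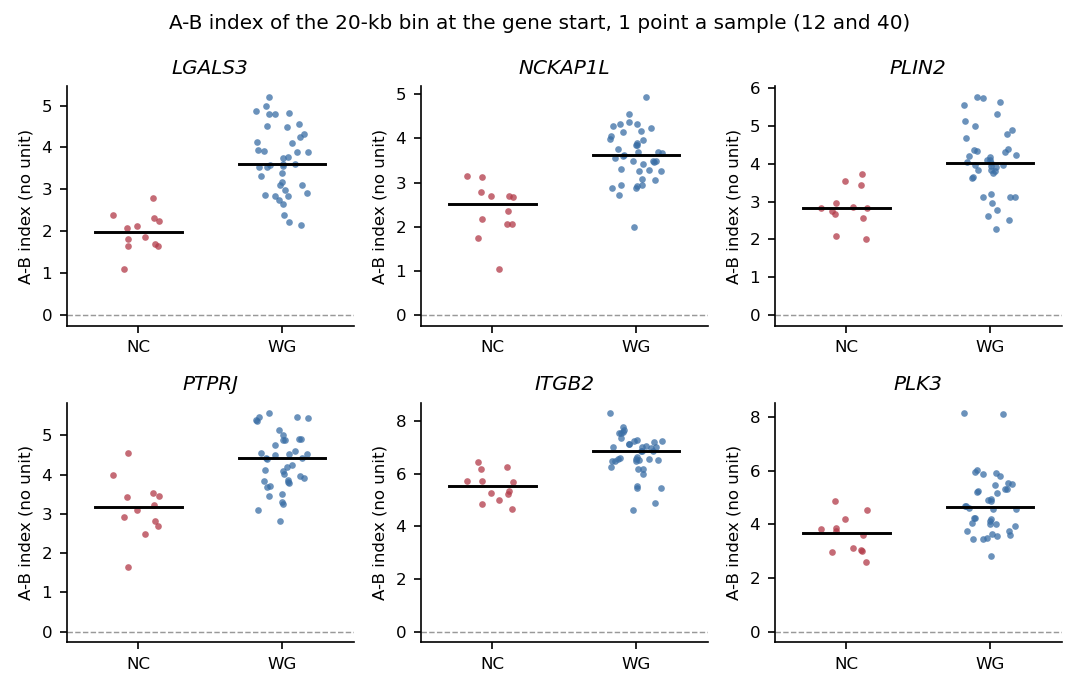
A-B index, which has no unit, of the 20-kb bin at the start of 6 genes in 12 NC and 40 WG samples, with 1 point a sample and a line at the median. Each gene lies in compartment A in all samples shown, and WG medians are higher, from 1.97 to 3.61 at LGALS3.

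The bins with the largest index difference at a gene start were often at genes whose expression did not pass. EGR1, a transcription factor of the immediate early response, and REEP2, whose start lies in the next bin on chromosome 2, both had a difference of 1.74 (limma, adjusted p = 8.37e-05 and 4.74e-06). EGR1 expression was at medians of 155, 69.96 and 135 TPM, with log2 fold changes of -0.47 and 0.18. The prostaglandin E synthase PTGES rose by 1.69 in index and had log2 fold changes of 0.53 and 0.51, and the interferon gamma receptor subunit IFNGR2 rose by 1.54 in index and had 0.46 and 0.43. At IFNGR2 37 of 40 WG samples were above every NC sample. The largest falls were at SLC24A3, a sodium-calcium exchanger (-0.98), PAX1 (-0.96) and ADAM30 (-0.96), all in compartment B in both groups. At PAX1 23 of 40 WG samples were below every NC sample. Among the named macrophage genes the index at ATP6V0D2 went from a median of -1.83 to -1.37 (difference 0.56 ± 0.13, adjusted p = 0.00196 by limma) and at ACP5 from 2.17 to 2.67 (0.49 ± 0.15, adjusted p = 0.0126), both short of the limit of 0.75. After quantile normalization the difference was 0.505 at ATP6V0D2 (limma, adjusted p = 0.00544). At ACP5 it was then 0.275 and did not pass (limma, adjusted p = 0.167). At SPP1, TREM2 and LEP the differences were -0.10, 0.20 and 0.34, with adjusted p values from limma of 0.791, 0.374 and 0.145. The 25 switch bins held the starts of 3 genes, RNF11, KCNAB1 and RPP30. RNF11 had 0.37 and 0.03, KCNAB1 -1.22 and 0.60 and RPP30 0.15 and -0.09 on the log2 scale of expression, so that none was called against both sets by edgeR.

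Topologically associating domains (TADs), stretches of chromatin with more contacts inside than across their borders, were fewer in WG, and the mean over samples of their median length was greater. The 12 NC samples had 4877 to 5614 TADs (median 5218.5) and the 40 WG samples 4711 to 5437 (median 4955.5). The ranges overlapped, with 3 NC samples above all WG samples. The means were 5209 ± 230 in NC and 4967 ± 138 in WG (SD), which differ by -241 (2-sided permutation test with 100000 resamples, p = 0.00024, adjusted p = 0.00048 over 2 measures). The median length of a TAD was 335 ± 12.4 kb in NC and 348.5 ± 10.99 kb in WG, a difference of 13.5 kb. The ranges were 320 to 360 kb and 340 to 380 kb, and the group median was 340 kb in both (permutation test, p = 0.00122, adjusted p = 0.00122). TADs covered 2232 to 2245 Mb in each sample. The contacts per sample were not analysed here, and their part in the number of TADs was not tested.

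**Figure D5:**
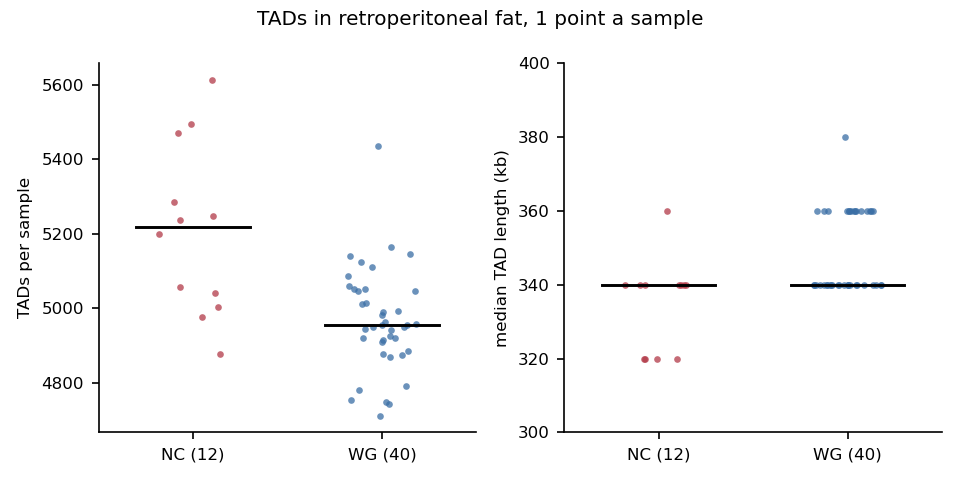
Number of TADs (left) and median TAD length in kb (right) in 12 NC and 40 WG samples of RAD, with 1 point a sample and a line at the median. The WG points lie at or below 5164 TADs except 1 at 5437, NC reaches 5614, lengths step by the 20-kb bin, and the vertical axes do not start at 0.

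H3K27ac marks active enhancers, and its regions were deposited pooled, as 1 table for 2 NC samples and 2 tables for 12 WG samples (called subgroup 5 and subgroup 6 in the files), so that no test was possible. The study's methods describe WG subgroups, for its pooled Hi-C data, as clusters of samples by estimated cell composition. If the H3K27ac subgroups are the same, cell composition and diet cannot be told apart in these tables. The tables held 20732 regions over 464.6 Mb in NC, 18143 over 306.3 Mb in subgroup 5 and 25206 over 379.8 Mb in subgroup 6. Of 75 named genes with a position, 70, 63 and 67 had a region within 10 kb, and 30, 17 and 15 a super-enhancer, a long region of high signal. The same tables held 1211, 912 and 1006 super-enhancers in all. At ATP6V0D2, 0 regions were listed in NC, 1 in subgroup 5 and 2 in subgroup 6. At METRNL 0 regions were listed in NC and 1 super-enhancer of 134 kb in each WG table. ADIPOQ, whose expression fell, had a region of 227 kb that counted as a super-enhancer in NC and regions of 46.6 and 30.0 kb in the WG tables that did not. RBP4, which also fell, had a region of 57.4 kb in NC and none listed in either WG table. IL6 had 1 region in each table, with a signal over input of 69.1 per kb in NC and of 186 and 125 per kb in WG. CTHRC1, whose expression rose, had 1 region in NC and none listed in WG, so that the presence of a region did not follow expression at each gene.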

How the data were processed

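RNA was depleted of ribosomal RNA, sequenced with strand and quantified by the authors with kallisto 0.43.0 against Sscrofa11.1. The authors deposited estimated counts per gene, which need not be whole and were rounded here, and TPM values, which are scaled for gene length and to the library. In the deposited A-B index tables each 20-kb bin has a score without unit, made by the authors from Hi-C contact maps after matrix balancing and normalization between samples. Their Hi-C protocol used the layer of fixed tissue that holds the fat cells, a step not described for RNA. TADs were deposited as lists of positions called by the authors with deDoc. H3K27ac regions were deposited with their signal over pooled reads, mapped with BWA 0.7.15, handled with SAMtools 1.3.1, called with SICER and stitched with ROSE, with the surroundings of gene starts left out.

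The test took PCGs that exceeded 0.5 TPM in 80% or more of NC or of WG samples, and used the rounded counts in edgeR 4.0.16 (TMM scaling, quasi-likelihood test, Benjamini-Hochberg adjustment) in R 4.3.3, in 1 fit with low-share NC, high-share NC and WG as groups and in 1 fit with NC pooled. The limit between the NC sets was a PCG share of 88% of summed TPM. The A-B index was tested with limma 3.58.1. Variable bins had an adjusted p below 0.05, a difference above 0.75 and the same compartment in over 80% of each group. TAD number and length were compared by permutation with scipy 1.17.1. The scripts were tested on simulated data first. Symbols were given for 14821 of 21280 gene IDs, and positions came from RefSeq for Sscrofa11.1. Alternatives were DESeq2 1.42.0, other filters, scalings and limits, leaving out each NC sample, and a block of replicate numbers.

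The members, gene lists and tests were chosen with earlier results of these data known. Genes were named by rule: the 10 higher and 10 lower PCGs called against both sets with a mean of at least 5 TPM and the largest smaller fold change, up to 4 called members of each list in each direction, reference genes of the field, up to 5 genes called in opposite directions, and genes at the 10 largest index differences in each direction together with the called genes in such bins. For the lipid-associated macrophage and fibrosis lists all called members are named. Among the deposited columns, 9 of other NC samples matched no label and were not used. Some genes that the rule names are not reported here. P-values measure the spread between pigs. The numbers of contacts per Hi-C sample were not used here.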

Additional observations from a re-analysis of the deposited data

Results flagged for a closer look

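By Dixon's criterion, chance flags about 1 in 20 groups of independent, normally distributed values. It was applied to TPM without a log scale, and the genes share the same libraries, so this rate need not hold here. In 29 of 154 combinations of a named gene and an NC set, 1 library lay far from the other 5 by this criterion. In 10 of them it was low-share NC replicate 12, which had the highest level of SCIN (39.6 TPM), TREH (14.7 TPM), AMBN (13.5 TPM), SPP1 (411 TPM), MSR1 (83.3 TPM), GPNMB (287 TPM), CCR1 (22.9 TPM), TLR8 (10.9 TPM), EGR2 (13.3 TPM) and CCL2 (280.3 TPM). Without it the log2 fold changes against low-share NC were 3.21, 2.89, 2.83, 2.65, 2.21, 1.74, 2.33, 1.52, 2.04 and 1.26 in the same order.

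Low-share NC replicate 7 was highest for CYP2A19 (92.3 TPM), HSD17B6 (23.4 TPM), C5 (54.2 TPM) and IGFBP2 (18.02 TPM). Replicate 1 was highest for PEBP4 (29.04 TPM), LPIN1 (290.1 TPM) and VEGFA (151 TPM) and lowest for CCN2 (10.7 TPM), and replicate 2 was highest for TAGLN (208 TPM) and PECAM1 (469 TPM). Among the high-share NC libraries, replicate 11 was highest for ATP6V0D2 (1.11 TPM), IL6 (51.2 TPM), TLR8 (9.41 TPM) and CLVS1 (11.7 TPM). Replicate 4 was highest for CYP2A19 (116 TPM) and PAEP (36.9 TPM), replicate 9 for CTHRC1 (27.6 TPM) and IGFALS (12.1 TPM), and replicate 10 for LOXL4 (6.94 TPM).

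The levels of 3 named genes differed between the NC sets and stood on opposite sides of WG. CLVS1 was higher in low-share than in high-share NC by 3.51 on the log2 scale (edgeR, adjusted p = 3e-12), FBXL2 by 1.89 (adjusted p = 5.01e-07) and RPS6KL1 by 1.48 (adjusted p = 0.00104).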

How the results depend on the processing

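The number of PCGs called changed with filter, limits and tool. Without the filter on low genes (20707 PCGs tested) the calls were 4396 with NC pooled, 5671 against low-share NC and 1708 between the NC sets, with 533 against both sets and 884 against high-share NC. Without a fold limit they were 4646 pooled, 4693 against low-share NC, 1316 against high-share NC and 868 against both sets. DESeq2 called 2257 pooled, 1055 against high-share NC and 678 against both, and the PCG share as a term gave 1838 pooled. Leaving out 1 NC library gave 2016 to 2542 pooled, 317 to 595 against both sets, 2527 to 3065 against low-share NC, 544 to 1111 against high-share NC and 312 to 574 between the sets. The low counts against both came without replicate 3 (317) and replicate 9 (349). Those against high-share NC came without replicates 3 (544), 6 (551), 9 (557) and 4 (576). Fewer samples were in these fits. For single genes 16 settings were used (DESeq2, no filter, upper-quartile scaling, separate fits and 12 fits without 1 NC library). They do not include the replicate block, the exact test or the PCG share as a term, and were examined for 59 named genes called against both sets. Of these 59, 20 kept their call under the 16 settings (ATP6V0D2, SCIN, ACP5, TREH, AMBN, LEP, RGS17, SPP1, LPXN, SPINK9, SGK2, PFKFB1, SLC36A2, MCTP2, PEBP4, PRKAR2B, RBP4, CTHRC1, MMP23B and JUNB). DESeq2 lost 1 call, no filter 14 and separate fits 8. The value of C5 against low-share NC ranged from -2.62 to 0.10 and changed sign without replicate 7.

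Quantile normalization gave 2428 variable bins and a difference above 0.5 gave 13720. Leaving out 1 NC sample gave 3597 to 5003 variable bins and 26 to 54 switch bins (47 without replicate 2, 44 without 5, 54 without 7, 53 without 11 and 39 without 12). Switch bins numbered 43 with only the NC samples of low share and 179 with only those of high share, and limits of 80% and 20% left 44 frequency bins. The cause of these shifts was not tested.

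A block of replicate numbers, on the 22 libraries with a shared number, called 781 PCGs (362 higher, 419 lower). The same 22 libraries without the block, an alternative chosen after seeing the data, gave 1156. For the index the block gave 3178 variable bins and 3817 without it. Samples of the same number came from different pigs, and of 11 pairs 5 (expression, median r = 0.0621) and 6 (index, median r = 0.143) correlated above 0.1, so the numbers were not read as a pairing.

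Estimated counts, a set of 6 libraries on each side of the NC split and pooled H3K27ac tables limit the precision.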
